A study of Homo sapiens with 14 samples.

Results

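RNA was compared between 2 stages of pancreatic differentiation, early progenitors (PP1, 2 libraries) and late progenitors (PP2, 3 libraries), to describe which genes changed as the progenitors matured. Every gene with enough counts was included, which was 24603 of the 59050 gene symbols in the count table. All libraries came from HUES8, an established line of human embryonic stem cells, with the genotype given as wild type, and held total RNA from which ribosomal RNA had been removed. The 2 libraries of definitive endoderm (DE), the stage before PP1, entered the fit to share its estimate of the spread. They also entered the count filter and the scaling, so a gene could be tested because of its DE counts. The labels used here gave neither the agents nor the days of culture of any stage. Whether replicates were separate differentiations was not labelled, so p-values measure only the spread between these libraries, which may be technical. Each stage stands for 1 cell line, and each library for a mixture of all cells in the dish, in which fewer cells of a type and less RNA per cell cannot be told apart.

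Pancreatic progenitors form from the posterior foregut endoderm, where retinoic acid and restrained BMP and Hedgehog signals let cells switch on the transcription factor PDX1. Maturing progenitors add NKX6-1, needed for beta cell fate, and PTF1A, needed for early pancreatic growth and for the enzyme-secreting acinar cells. Endocrine cells branch off when NEUROG3 rises in single progenitors, while Notch signalling and SOX9 keep the others in the progenitor state.

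The 5 libraries held 16228393 to 21009065 counts. PP2 replicate 3 stood apart from the other 2 PP2 libraries, although its label was the same. Libraries were compared over 10724 genes with a mean of at least 10 CPM (counts scaled to a common library total) in the 7 RNA libraries. The log2 ratio of replicate 1 to replicate 2 had a standard deviation of 0.149. It was 0.799 and 0.815 when replicate 3 was set against each of them. The 2 PP1 libraries gave 0.238. In replicate 3, the share of counts from mitochondrially encoded protein genes was 0.950%. It was 3.34% and 3.74% in the other 2 PP2 libraries and 3.99% and 2.47% in PP1. It was kept, each PP2 library is shown, and counts are given with and without it.

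Levels are given as CPM over scaled library sizes, and fold changes as log2 of PP2 over PP1 each followed by ± its standard error. This error is the size of the log2 value divided by the square root of the test's F statistic. In edgeR's quasi-likelihood test with Benjamini-Hochberg adjustment over all tested genes (n = 3 against 2), an adjusted p under 0.05 counted as passed. By this test 1918 genes rose (7.8%) and 2615 fell (10.6%), and of these 1450 and 1954 had a fitted change of more than 2-fold. Without PP2 replicate 3, 4377 of 24105 genes rose (18.2%) and 5607 fell (23.3%). Both fits called 4493 genes, each in the same direction, and 40 genes passed only with all libraries. A further 5491 passed only without replicate 3. With 1 PP1 library left out the count of calls fell to 1210 (without replicate 1) or 1376 (without replicate 2). In the fit of all libraries and in each of the 7 fits that left out 1, 294 genes rose and 714 fell. Where leaving out 1 library ended the call of a named gene, or moved a list's count by more than 1.5 times, the library is named beside it. The count of calls over all genes changed in these fits too, so such a move need not be particular to the list. When library sizes were counted over protein-coding genes only, the balance turned, with 2588 genes higher and 2267 lower, and the median fold change over all tested genes moved from log2 0.01 to 0.10.

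**Figure D1:**
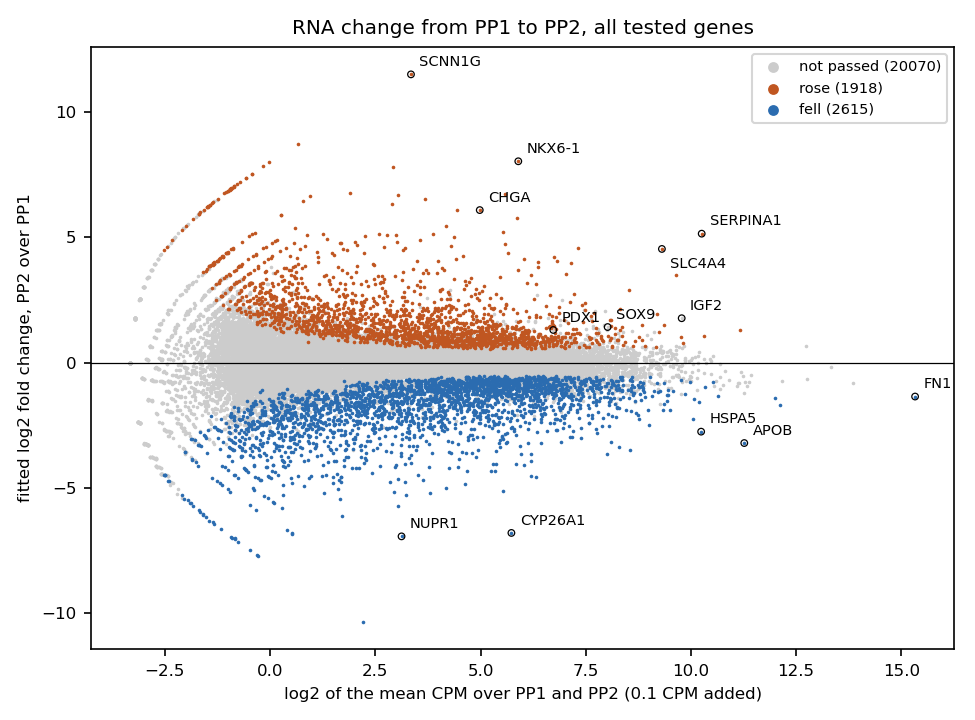
Each point is 1 of the 24603 tested genes, with the log2 mean CPM over PP1 and PP2 on the x axis and the fitted log2 fold change of PP2 over PP1 on the y axis. The 1918 genes that rose are orange, the 2615 that fell are blue, and some of the genes named in the text are circled, with NKX6-1 and SCNN1G at the top, CYP26A1 and NUPR1 at the bottom and PDX1 and SOX9 among those that did not pass.

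The late progenitor regulators NKX6-1 and PTF1A appeared between the stages, while most other progenitor factors, PDX1 and SOX9 among them, were already present in PP1. NKX6-1, a homeodomain factor of late progenitors and beta cells, was measured at 0.480 and 0.416 CPM in PP1 and 150.4, 134 and 71.4 CPM in PP2. It was close to absent from PP1 and clear in each PP2 library, although lowest in replicate 3, and rose (log2 8.04 ± 0.50, adjusted p = 2.4e-04). PTF1A, a factor of progenitors and acinar cells, was measured at 0 and 0.312 CPM in PP1 and 14.8, 12.8 and 15.8 CPM in PP2, with all 3 PP2 libraries alike (log2 6.32 ± 0.62, adjusted p = 6.1e-04). MNX1, a homeodomain factor of the pancreatic bud and beta cells, rose as well, from 6.58 and 4.94 CPM in PP1 to 25.5, 27.2 and 17.9 CPM in PP2 (log2 2.03 ± 0.27, adjusted p = 0.00225). BHLHA15, a factor of secretory cells, fell from 7.54 and 8.53 CPM to 0.417, 0.561 and 0.323 CPM (log2 -4.20 ± 0.37, adjusted p = 4.0e-04), and ONECUT2 fell from 2275 and 2297 CPM to 799, 996 and 949 CPM (log2 -1.32 ± 0.20, adjusted p = 0.0034).

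Of the 20 tested pancreatic progenitor factors, 3 rose (6 leaving out PP2 replicate 3), 2 fell (11 leaving out PP2 replicate 3) and 15 did not pass, with a median of log2 -0.40 against 0.01 over all tested genes. Several of the 15 differed between replicate 3 and the other PP2 libraries. PDX1, which defines the pancreatic domain, was measured at 64.02 and 58.2 CPM in PP1 and 212, 198 and 42.1 CPM in PP2, so replicate 3 lay below PP1 and the others above it (log2 1.30 ± 0.61, adjusted p = 0.187). SOX9, which maintains progenitors, showed the same order, at 129 and 154 CPM in PP1 and 511, 521 and 100.4 CPM in PP2 (log2 1.42 ± 0.61, adjusted p = 0.145). GATA4 was lower in each PP2 library, at 531 and 558 CPM in PP1 and 313, 326 and 95.6 CPM in PP2 (log2 -1.15 ± 0.44, adjusted p = 0.107). Without replicate 3 the calls included PDX1 (log2 1.75 ± 0.10, adjusted p = 3.9e-11), SOX9 (log2 1.88 ± 0.10, adjusted p = 1.3e-11) and GATA4 (log2 -0.76 ± 0.08, adjusted p = 3.4e-07). PROX1, HHEX and TEAD1 stayed within a narrow range, for example PROX1 at 52.98 and 73.9 CPM in PP1 and 66.2, 79.1 and 47.2 CPM in PP2.

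**Figure D2:**
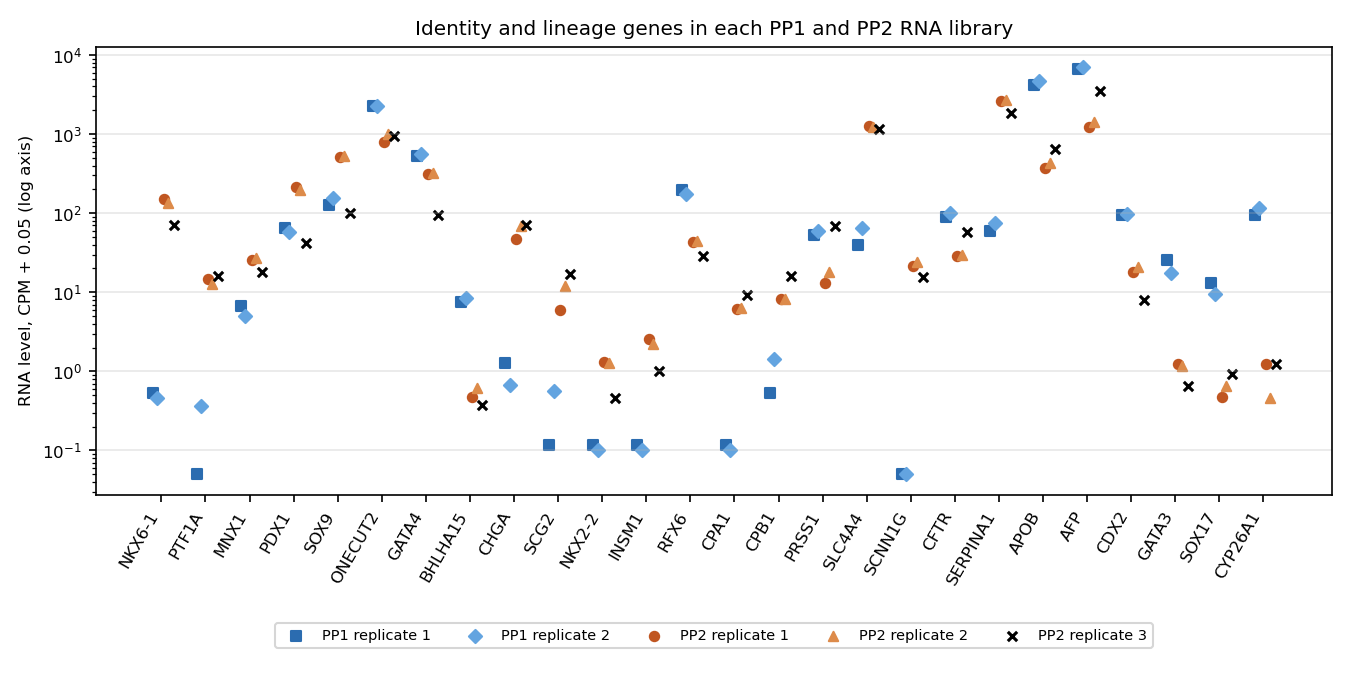
RNA level of 26 named genes on a log axis (CPM, with 0.05 added), with 1 symbol for each of the 2 PP1 libraries (blue) and 3 PP2 libraries (orange and black). PP2 replicate 3 (crosses) lies near the other PP2 libraries for PTF1A, CHGA and SLC4A4 and well below them for PDX1 and SOX9.

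Some endocrine genes rose from very low levels, others fell, and the main hormone genes stayed at or near 0 counts. Of 14 tested endocrine transcription factors 5 rose (1 leaving out PP1 replicate 1, 0 leaving out PP1 replicate 2 and 3 leaving out PP2 replicate 1 or 2) and 3 fell (1 leaving out PP1 replicate 1), and of 13 tested granin, convertase and hormone genes 5 rose (3 leaving out PP1 replicate 2 or PP2 replicate 1 or 2 and 8 leaving out PP2 replicate 3) and none fell, with a median of log2 1.37 for the second list. Chromogranin A (CHGA), a protein of endocrine secretory granules, was measured at 1.23 and 0.624 CPM in PP1 and 47.1, 68.7 and 70.3 CPM in PP2. It was similar in the 3 PP2 libraries and rose (log2 6.09 ± 0.37, adjusted p = 1.5e-04). Secretogranin II (SCG2) was measured at 0.0685 and 0.520 CPM in PP1 and 5.84, 11.8 and 16.8 CPM in PP2 (log2 5.15 ± 0.70, adjusted p = 0.00235). It was higher in each PP2 library than in PP1 and highest in replicate 3. INSM1 and NKX2-2, factors of endocrine precursors, had 2 counts each over the PP1 libraries. Their PP2 rates were 31.3-fold (95% counting interval 8.47 to 262) and 15.9-fold (95% counting interval 4.22 to 135) higher, at 2.505, 2.19 and 0.968 CPM for INSM1 and 1.25, 1.22 and 0.415 CPM for NKX2-2 (adjusted p = 0.00431 and 0.0151). NEUROD1, a target of NEUROG3, had no PP1 count and was at least 9.32-fold higher, against a floor of 3 counts over the PP1 libraries (adjusted p = 0.0351). NEUROD1 had too few counts to be tested without PP2 replicate 1 or 2. NEUROG3 itself did not pass, at 0.137 and 0.104 CPM in PP1 and 0.835, 0.612 and 0.323 CPM in PP2 (log2 2.24 ± 0.77, adjusted p = 0.088). INSM1 lost its call without PP1 replicate 2 (adjusted p = 0.058). NKX2-2 and NEUROD1 lost their calls without PP1 replicate 1 or 2 (adjusted p = 0.104 to 0.158).

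Of the hormones, INS and GCG had at most 1 count and SST at most 6 counts in any library, and PPY had none, so 7 members of the hormone list were too low to test. RFX6, a factor of foregut endoderm and islets, fell furthest of the 3 endocrine factors that did, from 194 and 176 CPM to 43.5, 44.998 and 28.9 CPM (log2 -2.24 ± 0.22, adjusted p = 6.8e-04).

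Acinar markers with measurable RNA mostly rose, and the enzymes of mature acinar cells stayed near 0. Of 7 tested members 5 rose and none fell (1 leaving out PP2 replicate 3), with a median of log2 2.41. CPA1, a carboxypeptidase gene and a marker of tip progenitors, had 2 counts over the PP1 libraries and was 124-fold (95% counting interval 34.03 to 1024) higher in PP2, at 6.05, 6.33 and 9.31 CPM (adjusted p = 5.0e-04). CPB1, GP2 and the trypsin inhibitor gene SPINK1 rose by log2 3.45 ± 0.54, 2.15 ± 0.34 and 2.41 ± 0.46, and each was higher in every PP2 library than in either PP1 library. The trypsinogen gene PRSS1, whose reads may be split with near-identical copies, did not pass, at 52.5 and 60.2 CPM in PP1 and 12.9, 18.1 and 68.5 CPM in PP2 (log2 -0.76 ± 0.60, adjusted p = 0.414). It was low in PP2 replicates 1 and 2 and at the PP1 level in replicate 3. A further 8 enzyme genes were too low to test, and 4 of them, PNLIP, AMY2A, REG1A and CLPS, had 0 counts in all 5 libraries. SPINK1 lost its call without PP1 replicate 2 (adjusted p = 0.0975).

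Ion transport genes of ducts and other epithelia changed in both directions, and of 16 tested 5 rose (3 leaving out PP1 replicate 1 or 2) and 4 fell (1 leaving out PP1 replicate 1 or 2 or PP2 replicate 1). SLC4A4, a sodium bicarbonate cotransporter of pancreatic ducts, was measured at 39.2 and 65.5 CPM in PP1 and 1280.4, 1223 and 1145 CPM in PP2 (log2 4.54 ± 0.32, adjusted p = 2.0e-04), and the chloride exchanger gene SLC26A3 at 0.548 and 0.676 CPM in PP1 and 47.1, 30.8 and 49.8 CPM in PP2 (log2 6.09 ± 0.37, adjusted p = 1.5e-04). SCNN1G, the gamma subunit of the epithelial sodium channel, had no PP1 count and was at least 225-fold higher in PP2, at 21.2, 23.9 and 15.3 CPM (adjusted p = 3.6e-04). All 3 PP2 libraries were far above PP1 for these transporters. The alpha subunit gene of the same channel, SCNN1A, went the other way, from 23.2 and 19.1 CPM to 2.66, 3.78 and 2.12 CPM (log2 -2.89 ± 0.26, adjusted p = 4.2e-04). CFTR, the chloride channel of duct cells, fell from 90.1 and 102 CPM to 28.7, 29.2 and 57.6 CPM (log2 -1.32 ± 0.33, adjusted p = 0.0274). CFTR lost its call without PP1 replicate 1 or 2 or PP2 replicate 1 or 2 (adjusted p = 0.0704 to 0.161).

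Of the 35 lists, the lowest median was that of the integrated stress response, the programme by which ATF4 raises amino acid supply and stress factors when translation initiation is slowed. Of 27 tested members none rose and 19 fell (10 leaving out PP1 replicate 1 and 11 leaving out PP1 replicate 2), with a median of log2 -2.08, and without PP2 replicate 3 all 27 fell. In 26 of the 27 every PP2 library lay below every PP1 library, which was so for 27.2% of all tested genes. DDIT3 (CHOP), a stress transcription factor, was measured at 95.96 and 80.6 CPM in PP1 and 5.22, 7.296 and 17.01 CPM in PP2 (log2 -3.16 ± 0.43, adjusted p = 0.00251). TRIB3, which feeds back on ATF4, was measured at 103 and 97.99 CPM in PP1 and 3.97, 7.86 and 28.9 CPM in PP2 (log2 -2.89 ± 0.66, adjusted p = 0.0203). In both, replicate 3 was the highest of the PP2 libraries and still below PP1. ATF3, another stress factor, was measured at 80.5 and 67.2 CPM in PP1 and 10.3, 13.6 and 9.17 CPM in PP2 and was similarly low in all 3 (log2 -2.75 ± 0.21, adjusted p = 2.6e-04). NUPR1, a stress-induced chromatin protein, fell furthest, from 17.4 and 16.7 CPM to 0.209, 0.102 and 0.0922 CPM (log2 -6.94 ± 0.44, adjusted p = 1.6e-04). The mRNA of ATF4 itself did not pass, at 747 and 694 CPM in PP1 and 284, 328 and 568 CPM in PP2 (log2 -0.87 ± 0.29, adjusted p = 0.0721). TRIB3 lost its call without PP1 replicate 1 or 2 or PP2 replicate 2 (adjusted p = 0.0535 to 0.107).

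The size of this fall depended on the PP2 library, since the median of the 27 members relative to the PP1 mean was log2 -2.50, -2.13 and -1.48 in PP2 replicates 1, 2 and 3. Some members differed strongly between the PP2 libraries. SLC7A11, the cystine transporter gene, was measured at 466 and 439 CPM in PP1 and 47.4, 72.8 and 322 CPM in PP2 and did not pass (log2 -1.62 ± 0.68, adjusted p = 0.139). MTHFD2, a mitochondrial enzyme of one-carbon metabolism, was measured at 275 and 324 CPM in PP1 and 52.97, 77.2 and 318 CPM in PP2, so that replicate 3 stood at the PP1 level (log2 -1.002 ± 0.65, adjusted p = 0.318). The cytosolic aminoacyl-tRNA synthetases, part of them ATF4 targets, showed a similar gap between the PP2 libraries. Of 17 tested none rose (1 leaving out PP2 replicate 3) and 6 fell (3 leaving out DE replicate 1 or 2, PP1 replicate 1 or 2 or PP2 replicate 1 or 2 and 13 leaving out PP2 replicate 3), with medians of log2 -1.15, -0.93 and -0.08 in replicates 1, 2 and 3. WARS, which charges tryptophan tRNA, fell from 447 and 364 CPM to 53.5, 60.1 and 98.8 CPM (log2 -2.52 ± 0.28, adjusted p = 0.00103), and RARS, for arginine, did not pass, at 84.6 and 76.4 CPM in PP1 and 82.4, 83.3 and 161 CPM in PP2 (log2 0.44 ± 0.30, adjusted p = 0.354).

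Many chaperones and quality control genes of the endoplasmic reticulum fell beside them. Of 24 tested members none rose and 15 fell (8 leaving out PP1 replicate 1 and 23 leaving out PP2 replicate 3), with a median of log2 -1.37. HSPA5 (BiP), the main chaperone of this compartment, was measured at 2135 and 2083 CPM in PP1 and 402, 425 and 109.8 CPM in PP2, and replicate 3 was the lowest (log2 -2.76 ± 0.49, adjusted p = 0.00714). CALR, calreticulin, was measured at 1773 and 1719 CPM in PP1 and 591, 645 and 531 CPM in PP2, with the 3 PP2 libraries close together (log2 -1.57 ± 0.18, adjusted p = 0.00125). HERPUD1, which serves the degradation of misfolded proteins, fell from 238 and 227 CPM to 33.2, 36.99 and 49.4 CPM (log2 -2.54 ± 0.21, adjusted p = 3.3e-04). XBP1, the transcription factor spliced by IRE1, fell from 327 and 322 CPM to 65.7, 78.8 and 159 CPM (log2 -1.68 ± 0.34, adjusted p = 0.0129). CANX, HSP90B1 and PDIA6 did not pass. Replicate 3 lay at the PP1 level for these, for example at 1241 and 1149.7 CPM in PP1 and 648, 659.9 and 1171 CPM in PP2 for CANX and 348 and 336 CPM in PP1 and 204, 218 and 369 CPM in PP2 for PDIA6. HSPA5 lost its call without PP1 replicate 1 (adjusted p = 0.0532). XBP1 lost its call without PP1 replicate 1 or 2 (adjusted p = 0.084 to 0.0918).

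**Figure D3:**
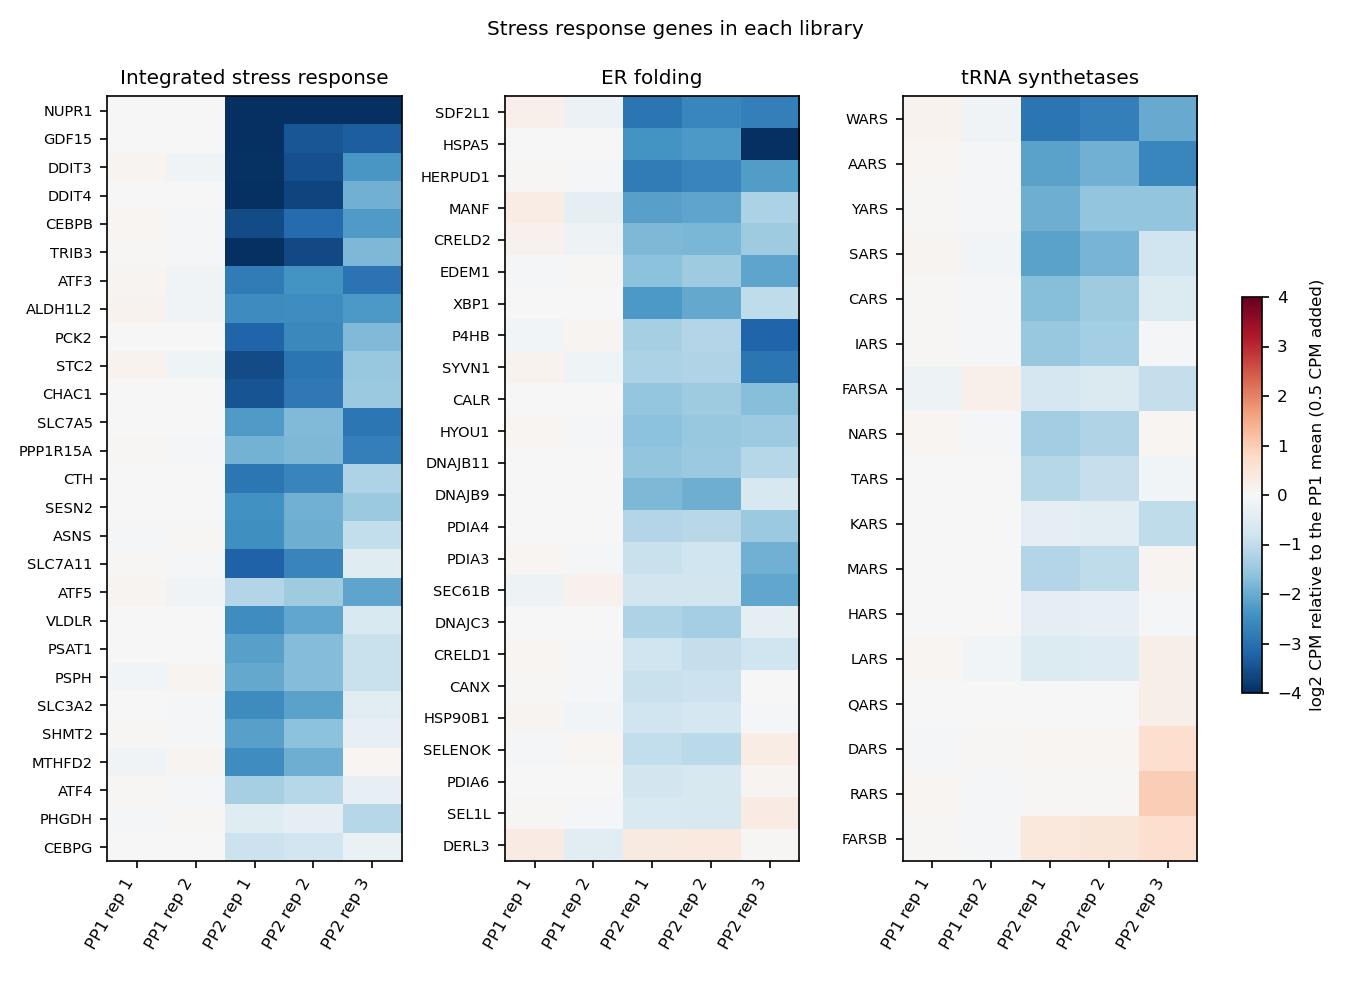
Colour gives log2 CPM relative to the PP1 mean (0.5 CPM added to each) for the tested members of 3 lists, with 1 row per gene ordered by fitted fold change and 1 column per library. PP2 replicates 1 and 2 are blue (lower) for nearly all members, while replicate 3 is paler for many stress response and synthetase genes and darker for HSPA5, P4HB and SYVN1.

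Promoters of these genes were searched for 2 short elements, in the RefSeq table of sequences from 250 bases before to 50 bases after each gene's start (GRCh38.p14), on both strands. The ER stress element (CCAAT, 9 bases of any kind, then CCACG), bound by ATF6 with NF-Y, was found in 25 of 27305 promoters (0.0916%). It stood in 17 tested genes, of which none rose and 6 fell (35.3%), against 9.05% risen and 13.7% fallen of the 12912 tested genes with a promoter in the table. Of the 17, 7 were members of the endoplasmic reticulum list above, among them HSPA5, CALR, XBP1 and CRELD2, which fell. The count thus partly repeats that list and is not separate evidence. Without replicate 3, 14 of the 17 fell and none rose, in a fit where 23.3% of all tested genes fell and 18.2% rose. These 2 shares also cover genes without a promoter sequence, so they are not the same background as above. The elements of the 6 genes that fell are shown with the bases around them, since they carry this count, with the element in capitals, 5′ to 3′ on the strand of the gene. In CRELD2, CALR and SYNPO the element is on the opposite strand, so its reverse complement is printed.
HSPA5 (chr9:125241376-125241424, minus strand, 81 to 33 bases before the start): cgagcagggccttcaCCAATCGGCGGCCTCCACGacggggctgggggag
CRELD2 (chr22:49918539-49918587, plus strand, 95 to 47 bases before the start): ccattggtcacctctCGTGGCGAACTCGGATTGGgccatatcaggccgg
XBP1 (chr22:28800588-28800636, minus strand, 67 to 19 bases before the start): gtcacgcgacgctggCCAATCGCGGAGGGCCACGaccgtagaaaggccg
CALR (chr19:12938369-12938417, plus strand, 240 to 192 bases before the start): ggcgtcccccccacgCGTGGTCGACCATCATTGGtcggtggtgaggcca
FICD (chr12:108515108-108515156, plus strand, 169 to 121 bases before the start): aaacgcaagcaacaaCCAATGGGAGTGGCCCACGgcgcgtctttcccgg
SYNPO (chr5:150640566-150640614, plus strand, 94 to 46 bases before the start): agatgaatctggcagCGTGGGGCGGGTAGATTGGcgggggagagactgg
HSPA5, CALR and XBP1 are described above. CRELD2, another folding factor, fell from 48.8 and 37.3 CPM to 11.95, 11.7 and 15.7 CPM (log2 -1.71 ± 0.21, adjusted p = 0.00159), and FICD, which modifies HSPA5, from 26.5 and 21.3 CPM to 8.71, 7.296 and 10.4 CPM (log2 -1.44 ± 0.21, adjusted p = 0.00324). SYNPO, an actin-associated protein not on the list, fell from 6.31 and 5.77 CPM to 3.08, 1.48 and 0.830 CPM (log2 -1.75 ± 0.47, adjusted p = 0.0349). SYNPO lost its call without DE replicate 1 or 2, PP1 replicate 1 or 2 or PP2 replicate 2 (adjusted p = 0.0642 to 0.172).

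The ATF4 element (TGATGNAA) is shorter and more common, with 1217 of 27305 promoters (4.46%). Of 403 tested genes with it 32 rose (7.94%) and 59 fell (14.6%), close to the background of 9.05% and 13.7%. Within the stress response list it was found in 5 of 22 matched promoters, those of ATF3, CHAC1, ASNS, CEBPG and SLC3A2. The sites of the 3 that fell are shown in the same way, and that of CHAC1 is on the opposite strand.
ATF3 (chr1:212565201-212565238, plus strand, 206 to 169 bases before the start): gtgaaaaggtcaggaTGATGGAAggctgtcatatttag
CHAC1 (chr15:40953247-40953284, plus strand, 224 to 187 bases before the start): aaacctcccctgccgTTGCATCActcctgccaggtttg
ASNS (chr7:97872454-97872491, minus strand, 83 to 46 bases before the start): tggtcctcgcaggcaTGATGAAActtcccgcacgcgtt
CHAC1, which breaks down glutathione, was measured at 147 and 144 CPM in PP1 and 12.7, 19.7 and 52.1 CPM in PP2 (log2 -2.36 ± 0.51, adjusted p = 0.0162), and the asparagine synthetase gene ASNS at 34.1 and 35.9 CPM in PP1 and 6.001, 8.67 and 17.5 CPM in PP2 (log2 -1.70 ± 0.42, adjusted p = 0.0269). CHAC1 lost its call without PP1 replicate 1 or 2 (adjusted p = 0.0881 to 0.0961). ASNS lost its call without PP1 replicate 1 or 2 or PP2 replicate 1 or 2 (adjusted p = 0.0541 to 0.139). A match describes these letters only, and whether the factors bound there was not measured.

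Several retinoic acid genes fell. Of 19 tested members 9 fell (5 leaving out PP1 replicate 2) and 2 rose (0 leaving out PP1 replicate 1 or 2), with a median of log2 -1.19. CYP26A1, an enzyme that degrades retinoic acid and is itself induced by it, was measured at 95.3 and 115 CPM in PP1 and 1.2003, 0.408 and 1.198 CPM in PP2 (log2 -6.80 ± 0.38, adjusted p = 1.4e-04), so all 3 PP2 libraries were near 0. CYP26B1, of the same enzyme family, fell from 63.9 and 89.8 CPM to 5.32, 4.898 and 1.38 CPM (log2 -4.32 ± 0.48, adjusted p = 0.00104). DHRS3, a retinaldehyde reductase, fell by less, from 320.4 and 329 CPM to 130.3, 134 and 162 CPM (log2 -1.19 ± 0.19, adjusted p = 0.00497). The receptor gene RARG fell and RARB rose. RARG was measured at 8.98 and 9.305 CPM in PP1 and 1.36, 1.89 and 1.24 CPM in PP2 (log2 -2.61 ± 0.26, adjusted p = 6.7e-04) and RARB at 33.7 and 33.1 CPM in PP1 and 55.99, 54.3 and 77.7 CPM in PP2 (log2 0.91 ± 0.21, adjusted p = 0.0205). The retinoic acid response element with 2 core sites 5 bases apart (DR5), searched on both strands, was found in 29 of 27305 promoters (0.106%). It stood in 12 tested genes, of which 2 rose (16.7%) and 3 fell (25%). Of the 12912 tested genes with a promoter sequence 9.05% rose and 13.7% fell. With only 12 genes, the shares rest on few calls. The elements of CYP26A1 and RARB are shown because these 2 retinoic acid genes moved in opposite directions, with the core sites and the 5 bases between them in capitals, and that of CYP26A1 is on the opposite strand.
CYP26A1 (chr10:93073788-93073834, plus strand, 105 to 59 bases before the start): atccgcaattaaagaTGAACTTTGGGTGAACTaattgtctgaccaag
RARB (chr3:25428195-25428241, plus strand, 68 to 22 bases before the start): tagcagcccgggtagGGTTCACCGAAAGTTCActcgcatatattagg
DHRS3 and RARB lost their calls without PP1 replicate 1 or 2 (adjusted p = 0.0542 to 0.159).

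HOX genes, which set position along the body axis, were often too low to test. Of 17 tested members 3 fell (6 leaving out PP2 replicate 3) and 1 rose (0 leaving out DE replicate 2, PP1 replicate 1 or 2 or PP2 replicate 1 and 2 leaving out PP2 replicate 3), and 11 had at most 9 counts in any library. HOXB2, a gene of the anterior end of its cluster, fell from 15.8 and 16.8 CPM to 3.24, 3.11 and 0.876 CPM (log2 -2.77 ± 0.44, adjusted p = 0.00476). It was low in every PP2 library and lowest in replicate 3. HOXB3 did not pass, at 48.2 and 48.6 CPM in PP1 and 32.3, 34.2 and 14.8 CPM in PP2 (log2 -0.84 ± 0.32, adjusted p = 0.109).

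Many BMP and TGF-beta targets fell. Of 21 tested members 10 fell (17 leaving out PP2 replicate 3) and 2 rose (1 leaving out PP1 replicate 1 or PP2 replicate 1 and 0 leaving out PP1 replicate 2), with a median of log2 -1.12. ID1 and ID3, inhibitors of helix-loop-helix factors and direct BMP targets, were measured at 46.7 and 59.1 CPM in PP1 and 5.79, 8.26 and 15.6 CPM in PP2 (log2 -2.42 ± 0.36, adjusted p = 0.00361) and at 37.4 and 38.3 CPM in PP1 and 13.2, 15.6 and 11.6 CPM in PP2 (log2 -1.49 ± 0.18, adjusted p = 0.00154). The inhibitory SMAD gene SMAD6 fell from 44.1 and 40.9 CPM to 15.8, 17.4 and 13.7 CPM (log2 -1.44 ± 0.17, adjusted p = 0.00121). BAMBI, a decoy receptor, fell from 257 and 249 CPM to 27.5, 35.3 and 51.99 CPM (log2 -2.72 ± 0.27, adjusted p = 6.3e-04). These were below PP1 in all 3 PP2 libraries. The ligand gene BMP2 fell as well, and BMP5 rose, from 23.99 and 19.1 CPM to 58.7, 46.7 and 70.6 CPM (log2 1.44 ± 0.23, adjusted p = 0.00434). BMP5 lost its call without PP1 replicate 2 (adjusted p = 0.0668).

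Notch components rose more often than they fell, and of 18 tested 6 rose (0 leaving out PP1 replicate 1, 2 leaving out PP1 replicate 2 and 3 leaving out PP2 replicate 1) and 1 fell (0 leaving out PP1 replicate 1 or 2 and 3 leaving out PP2 replicate 3). NOTCH1, a receptor, was measured at 12.3 and 22.1 CPM in PP1 and 371, 366 and 68.03 CPM in PP2, with replicate 3 well below replicates 1 and 2 but above PP1 (log2 3.96 ± 0.74, adjusted p = 0.00897). The ligand gene JAG1 was measured at 300.1 and 382 CPM in PP1 and 845, 949 and 1128 CPM in PP2 and was higher in all 3 PP2 libraries (log2 1.51 ± 0.23, adjusted p = 0.00342), and JAG2 fell, from 10.01 and 12.4 CPM to 4.54, 4.64 and 2.63 CPM (log2 -1.51 ± 0.28, adjusted p = 0.00931). The target gene HEY1 rose from 1.58 and 2.86 CPM to 13.3, 9.85 and 13.9 CPM (log2 2.46 ± 0.40, adjusted p = 0.00499). HES1, the main Notch target of progenitors, differed little, at 61.3 and 70.6 CPM in PP1 and 68.3, 64.997 and 75.3 CPM in PP2 (log2 0.08 ± 0.20, adjusted p = 0.829). NOTCH1 and JAG2 lost their calls without PP1 replicate 1 or 2 (adjusted p = 0.0502 to 0.104). JAG1 and HEY1 lost their calls without PP1 replicate 1 (adjusted p = 0.0653 to 0.0661).

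WNT target and feedback genes were mixed, and of 18 tested 3 rose (1 leaving out PP1 replicate 1 or 2 and 10 leaving out PP2 replicate 3) and 2 fell (1 leaving out DE replicate 1 or 2, PP1 replicate 1 or PP2 replicate 1 and 0 leaving out PP1 replicate 2). Over all tested genes 7.8% rose and 10.6% fell, and without PP2 replicate 3 18.2% rose and 23.3% fell. CCND1, cyclin D1, was measured at 52.98 and 61.96 CPM in PP1 and 274, 318 and 310.5 CPM in PP2 and was alike in the PP2 libraries (log2 2.39 ± 0.19, adjusted p = 2.9e-04). AXIN2, the general feedback target, did not pass, at 4.87 and 4.37 CPM in PP1 and 7.202, 7.96 and 4.98 CPM in PP2 (log2 0.54 ± 0.24, adjusted p = 0.15). The secreted inhibitors FRZB and SFRP5 rose by log2 0.97 ± 0.16 and 0.94 ± 0.22. Of 22 tested FGF, EGF and ERK feedback genes, 5 rose (3 leaving out DE replicate 1 or 2 or PP2 replicate 1 or 2 and 2 leaving out PP1 replicate 1 or 2) and 8 fell (5 leaving out DE replicate 1 or 2 and 3 leaving out PP1 replicate 1 or 2). The receptor genes FGFR2 and FGFR1 moved in opposite directions. FGFR2, the FGF10 receptor of pancreatic epithelium, rose from 169 and 191 CPM to 502, 503 and 428 CPM (log2 1.41 ± 0.19, adjusted p = 0.00218), and FGFR1 fell from 671 and 537 CPM to 166, 185 and 119 CPM (log2 -1.95 ± 0.23, adjusted p = 0.00126). The feedback inhibitor gene SPRY4 fell from 82.3 and 77.7 CPM to 18.1, 24.8 and 17.6 CPM (log2 -1.99 ± 0.20, adjusted p = 6.8e-04), and the ligand gene FGF9 rose from 0.206 and 0.312 CPM to 9.39, 9.795 and 8.16 CPM (log2 5.07 ± 0.38, adjusted p = 2.4e-04). FRZB lost its call without PP1 replicate 1 or 2 (adjusted p = 0.0801 to 0.0805). SFRP5 lost its call without PP1 replicate 1 or 2 or PP2 replicate 1 or 2 (adjusted p = 0.0524 to 0.192).

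Of the 14 tested Hedgehog genes 3 fell (1 leaving out PP1 replicate 1 or 2 or PP2 replicate 1) and 1 rose (6 leaving out PP2 replicate 3). Both ligand genes on the list that could be tested fell, IHH from 138 and 115 CPM to 17.9, 17.8 and 5.21 CPM (log2 -3.22 ± 0.45, adjusted p = 0.00275) and SHH from 20.4 and 18.2 CPM to 7.36, 7.75 and 11.1 CPM (log2 -1.14 ± 0.25, adjusted p = 0.0159). The receptor and target gene PTCH1 was measured at 46.3 and 39.9 CPM in PP1 and 73.7, 73.1 and 18.3 CPM in PP2, higher in 2 PP2 libraries and lower in replicate 3 (log2 0.35 ± 0.50, adjusted p = 0.666). Among 16 YAP and TEAD target genes 1 rose (0 leaving out PP1 replicate 1 or 2 and 6 leaving out PP2 replicate 3) and 2 fell (1 leaving out DE replicate 1 or 2 or PP2 replicate 1 or 2, 0 leaving out PP1 replicate 1 or 2 and 4 leaving out PP2 replicate 3), and with the other scalings of library size 1 rose and 1 fell. With all libraries these YAP and TEAD counts were near the shares over all tested genes, 7.8% risen and 10.6% fallen. Without PP2 replicate 3 those shares were 18.2% and 23.3%. CCN1 and CCN2, the usual readouts, did not pass, with CCN2 at 37.6 and 40.2 CPM in PP1 and 31.9, 35.8 and 21.8 CPM in PP2 (log2 -0.38 ± 0.22, adjusted p = 0.265). SHH lost its call without PP1 replicate 1 or 2 or PP2 replicate 1 (adjusted p = 0.0523 to 0.132).

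Several markers of neighbouring endoderm lineages were present in PP1 and fell. Of 17 tested hepatic genes 8 fell (5 leaving out DE replicate 1 or 2, 2 leaving out PP1 replicate 1, 3 leaving out PP1 replicate 2 and 4 leaving out PP2 replicate 1 or 2) and 3 rose (1 leaving out PP1 replicate 1 or 2). Their summed level, led by AFP and APOB in PP1 and by SERPINA1 and AFP in PP2, was 14135 and 15122 CPM in PP1 and 5016, 5430.3 and 7679 CPM in PP2. Relative to PP1 the median of the members was log2 -0.85, -0.98 and 0.08 in replicates 1, 2 and 3, and 14 of the 17 were higher in replicate 3 than in the other 2. APOB, the lipoprotein of liver and gut, was measured at 4206 and 4689.6 CPM in PP1 and 371, 429 and 642 CPM in PP2 (log2 -3.21 ± 0.31, adjusted p = 5.9e-04), and alpha-fetoprotein (AFP) at 6566 and 6984 CPM in PP1 and 1243, 1427 and 3538 CPM in PP2 (log2 -1.71 ± 0.45, adjusted p = 0.0386). AFP in replicate 3 lay between PP1 and the other PP2 libraries. TF, AHSG and SERPINA1 were the members that rose, the last of them, alpha-1-antitrypsin, from 59.8 and 74.4 CPM to 2611, 2667 and 1852 CPM (log2 5.15 ± 0.31, adjusted p = 2.1e-04). AFP lost its call without DE replicate 1 or 2, PP1 replicate 1 or 2 or PP2 replicate 1 or 2 (adjusted p = 0.054 to 0.169). AHSG lost its call without PP1 replicate 1 or 2 (adjusted p = 0.0612 to 0.0638).

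Of 10 tested intestinal genes 3 fell (5 leaving out PP2 replicate 3) and 1 rose (0 leaving out PP1 replicate 1 or 2 or PP2 replicate 1), and their sum was 697 and 748 CPM in PP1 and 194 to 318 CPM in PP2. CDX2, the intestinal master regulator, fell from 93.9 and 98.2 CPM to 18.004, 20.7 and 7.84 CPM (log2 -2.63 ± 0.37, adjusted p = 0.00272). Several genes of definitive endoderm fell too, and of 16 tested 8 fell and 2 rose (0 leaving out PP1 replicate 1 or 2). GATA3 fell from 25.4 and 17.7 CPM to 1.2003, 1.12 and 0.599 CPM (log2 -4.47 ± 0.30, adjusted p = 1.7e-04), SOX17 from 13.2 and 9.41 CPM to 0.417, 0.612 and 0.876 CPM (log2 -4.12 ± 0.30, adjusted p = 2.1e-04) and OTX2 from 44.3 and 39.1 CPM to 2.04, 3.47 and 3.27 CPM (log2 -3.83 ± 0.25, adjusted p = 1.6e-04). Of 15 tested pluripotency genes 5 fell (3 leaving out PP1 replicate 2 and 8 leaving out PP2 replicate 3) and 1 rose (0 leaving out PP1 replicate 1 or 2 and 2 leaving out PP2 replicate 1), which was SOX2. Of 9 tested gastric and foregut genes 2 rose (1 leaving out PP1 replicate 1 or 2), SOX2 among them, and 3 fell (1 leaving out PP1 replicate 1 or 2), against 3 in each direction with library sizes over protein-coding genes. TDGF1, the Nodal co-receptor, fell from 15.7 and 16.2 CPM to 0.104, 0.153 and 0.599 CPM (log2 -5.73 ± 0.46, adjusted p = 2.9e-04). NANOG and POU5F1 stayed under 1 CPM in all 5 libraries. SOX2 lost its call without PP1 replicate 1 or 2 (adjusted p = 0.0669 to 0.078).

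Genes of cell types outside the endoderm moved both ways. Of 18 tested mesenchymal and smooth muscle genes 5 rose (1 leaving out PP1 replicate 1 or 2 and 3 leaving out PP2 replicate 1) and 4 fell (2 leaving out PP1 replicate 2). They summed to 849.8 and 1037 CPM in PP1 and 486 to 544 CPM in PP2, led by vimentin (VIM) at 602 and 773 CPM in PP1 and 238, 313 and 243 CPM in PP2 (log2 -1.38 ± 0.22, adjusted p = 0.00459). Decorin (DCN), a fibroblast marker, rose from 0.274 and 0.364 CPM to 4.12, 1.07 and 2.58 CPM and PRRX1 was too low to test. Of 9 tested endothelial genes 3 rose (1 leaving out PP1 replicate 1 or 2 and 6 leaving out PP2 replicate 3) and 2 fell (1 leaving out DE replicate 1 or 2, PP1 replicate 1 or 2 or PP2 replicate 1). They summed to 25.02 and 23.2 CPM in PP1 and 37.2 to 57.0 CPM in PP2. The blood genes on that list, among them PTPRC and GATA1, had at most 9 counts in any library. Of 10 tested neural genes 4 rose (1 leaving out PP1 replicate 1 and 2 leaving out PP1 replicate 2) and 1 fell (0 leaving out PP1 replicate 1 or 2 or PP2 replicate 1 or 2). They summed to 118 and 130.3 CPM in PP1 and 199.7 to 283 CPM in PP2. The defining factors SOX1 and NEUROG2 were too low to test. The microtubule genes MAP2 and DCX made up most of the difference, with MAP2 at 1.85 and 1.77 CPM in PP1 and 30.01, 29.03 and 30.9 CPM in PP2 (log2 4.05 ± 0.29, adjusted p = 2.0e-04). The part of such cells in the other changes was not tested. VIM lost its call without PP1 replicate 2 (adjusted p = 0.064). DCN lost its call without PP1 replicate 1 or 2 or PP2 replicate 1 (adjusted p = 0.0672 to 0.178). DCX lost its call without PP1 replicate 1 (adjusted p = 0.0626).

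Keratins of simple epithelium moved in both directions and several junction genes fell. Of 20 tested epithelial genes 4 rose (2 leaving out DE replicate 1 or 2 or PP2 replicate 1 or 2, 0 leaving out PP1 replicate 1 or 2 and 7 leaving out PP2 replicate 3) and 6 fell (1 leaving out PP1 replicate 1 or 2 and 12 leaving out PP2 replicate 3). KRT8 was measured at 1152 and 1528 CPM in PP1 and 2675, 2735 and 4439.8 CPM in PP2 (log2 1.29 ± 0.29, adjusted p = 0.0192) and its partner KRT18 at 530.2 and 624 CPM in PP1 and 1045, 1099.8 and 1334 CPM in PP2 (log2 1.01 ± 0.20, adjusted p = 0.0125). KRT7, a keratin of ducts and other epithelia, fell, from 2.67 and 4.52 CPM to 0.157, 0.153 and 0.138 CPM (log2 -4.54 ± 0.47, adjusted p = 0.00124), and KRT19, another duct keratin, did not pass (log2 -0.53 ± 0.19, adjusted p = 0.0945). E-cadherin (CDH1) rose from 337 and 400.4 CPM to 576, 612 and 567 CPM (log2 0.67 ± 0.18, adjusted p = 0.0379), and claudin 7 (CLDN7) fell from 91.9 and 101 CPM to 41.4, 44.4 and 63.1 CPM (log2 -0.96 ± 0.22, adjusted p = 0.0187). EPCAM, a general epithelial marker, was present throughout, at 328 and 359.5 CPM in PP1 and 276, 295 and 143 CPM in PP2 (log2 -0.53 ± 0.29, adjusted p = 0.248). KRT8 and KRT18 lost their calls without PP1 replicate 1 or 2 (adjusted p = 0.0832 to 0.18). CDH1 lost its call without DE replicate 1 or 2, PP1 replicate 1 or 2 or PP2 replicate 1 or 2 (adjusted p = 0.0868 to 0.299). CLDN7 lost its call without PP1 replicate 1 or 2 or PP2 replicate 1 or 2 (adjusted p = 0.0575 to 0.143).

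Many matrix genes fell. Of 26 tested 13 fell (8 leaving out DE replicate 1 or 2, 3 leaving out PP1 replicate 1 and 4 leaving out PP1 replicate 2) and 2 rose (0 leaving out PP1 replicate 1 or 2 and 4 leaving out PP2 replicate 3), with a median of log2 -0.81. Fibronectin (FN1), the most abundant of them, was measured at 60096 and 58051 CPM in PP1 and 23795, 25147 and 20373 CPM in PP2 (log2 -1.35 ± 0.23, adjusted p = 0.00579). The basement membrane genes LAMB1 and COL4A1 fell from 1615 and 1557 CPM to 614, 659.9 and 466 CPM (log2 -1.45 ± 0.20, adjusted p = 0.00272) and from 923 and 984 CPM to 414, 446 and 464 CPM (log2 -1.11 ± 0.17, adjusted p = 0.00429). COL1A1, fibrillar collagen of connective tissue, was measured at 228 and 263 CPM in PP1 and 56.1, 33.3 and 4.93 CPM in PP2, lowest in replicate 3 (log2 -2.97 ± 0.73, adjusted p = 0.0269). COL2A1, which cartilage and some epithelia make, rose instead, at 74.4 and 102 CPM in PP1 and 799, 887 and 273 CPM in PP2 (log2 2.89 ± 0.49, adjusted p = 0.00626). The heparan sulfate proteoglycan gene HSPG2 did not pass, at 2118 and 2417 CPM in PP1 and 1607, 1865 and 201 CPM in PP2, where replicate 3 differed from all other libraries. FN1 lost its call without PP1 replicate 1 (adjusted p = 0.0508). COL4A1 lost its call without PP1 replicate 2 (adjusted p = 0.0586). COL1A1 lost its call without DE replicate 1 or 2, PP1 replicate 1 or 2 or PP2 replicate 2 (adjusted p = 0.0533 to 0.123). COL2A1 lost its call without PP1 replicate 1 or 2 (adjusted p = 0.0566 to 0.0858).

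Many genes of glucose use fell. Of 27 tested glycolysis and hypoxia genes 13 fell (6 leaving out PP1 replicate 1, 7 leaving out PP1 replicate 2, 8 leaving out PP2 replicate 1 and 20 leaving out PP2 replicate 3) and 1 rose, with a median of log2 -0.70. The glucose transporter gene SLC2A3 was measured at 601 and 544 CPM in PP1 and 32.4, 38.5 and 94.1 CPM in PP2 (log2 -3.38 ± 0.43, adjusted p = 0.00194), and SLC2A1 differed little, at 79.6 and 117 CPM in PP1 and 94.8, 122 and 91.7 CPM in PP2 (log2 0.06 ± 0.24, adjusted p = 0.892). Phosphofructokinase (PFKP) fell from 117 and 118 CPM to 25.8, 32.9 and 34.2 CPM (log2 -1.93 ± 0.18, adjusted p = 5.7e-04). The pyruvate dehydrogenase kinase gene PDK1 was the member that rose, from 14.8 and 18.2 CPM to 78.4, 64.9 and 99.6 CPM (log2 2.29 ± 0.24, adjusted p = 7.9e-04). Of 23 tested cholesterol synthesis genes 2 fell (1 leaving out DE replicate 1 or 2, 0 leaving out PP1 replicate 1 or 2 or PP2 replicate 1 and 11 leaving out PP2 replicate 3) and none rose (5 leaving out PP2 replicate 3), but with library sizes counted over protein-coding genes 2 rose and 2 fell.

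Some genes of the cell cycle rose and several of its inhibitors fell. Of 30 tested S and G2M phase genes 6 rose (1 leaving out PP1 replicate 1 or 2 and 22 leaving out PP2 replicate 3) and none fell (2 leaving out PP2 replicate 3), with a median of log2 0.61. PCNA, the DNA polymerase clamp, was measured at 47.9 and 58.7 CPM in PP1 and 112, 120.3 and 202 CPM in PP2 (log2 1.44 ± 0.29, adjusted p = 0.0123), and cyclin E2 (CCNE2) at 5.28 and 4.78 CPM in PP1 and 14.1, 13.7 and 18.7 CPM in PP2 (log2 1.63 ± 0.24, adjusted p = 0.00312). MKI67, the proliferation marker, was higher than PP1 in replicates 1 and 2 and lower in replicate 3, at 352 and 372 CPM in PP1 and 543, 613 and 133 CPM in PP2 (log2 0.25 ± 0.53, adjusted p = 0.785). Of 16 inhibitor and p53 target genes 7 fell (2 leaving out PP1 replicate 1 or 2 and 12 leaving out PP2 replicate 3) and none rose (2 leaving out PP2 replicate 3). CDKN1A (p21) fell from 27.2 and 27.2 CPM to 6.52, 11.3 and 14.4 CPM (log2 -1.34 ± 0.31, adjusted p = 0.0208) and CDKN2B (p15) from 45.4 and 52.6 CPM to 5.69, 4.64 and 9.72 CPM (log2 -2.87 ± 0.37, adjusted p = 0.00193). PCNA and CDKN1A lost their calls without PP1 replicate 1 or 2 (adjusted p = 0.0818 to 0.139).

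**Figure D4:**
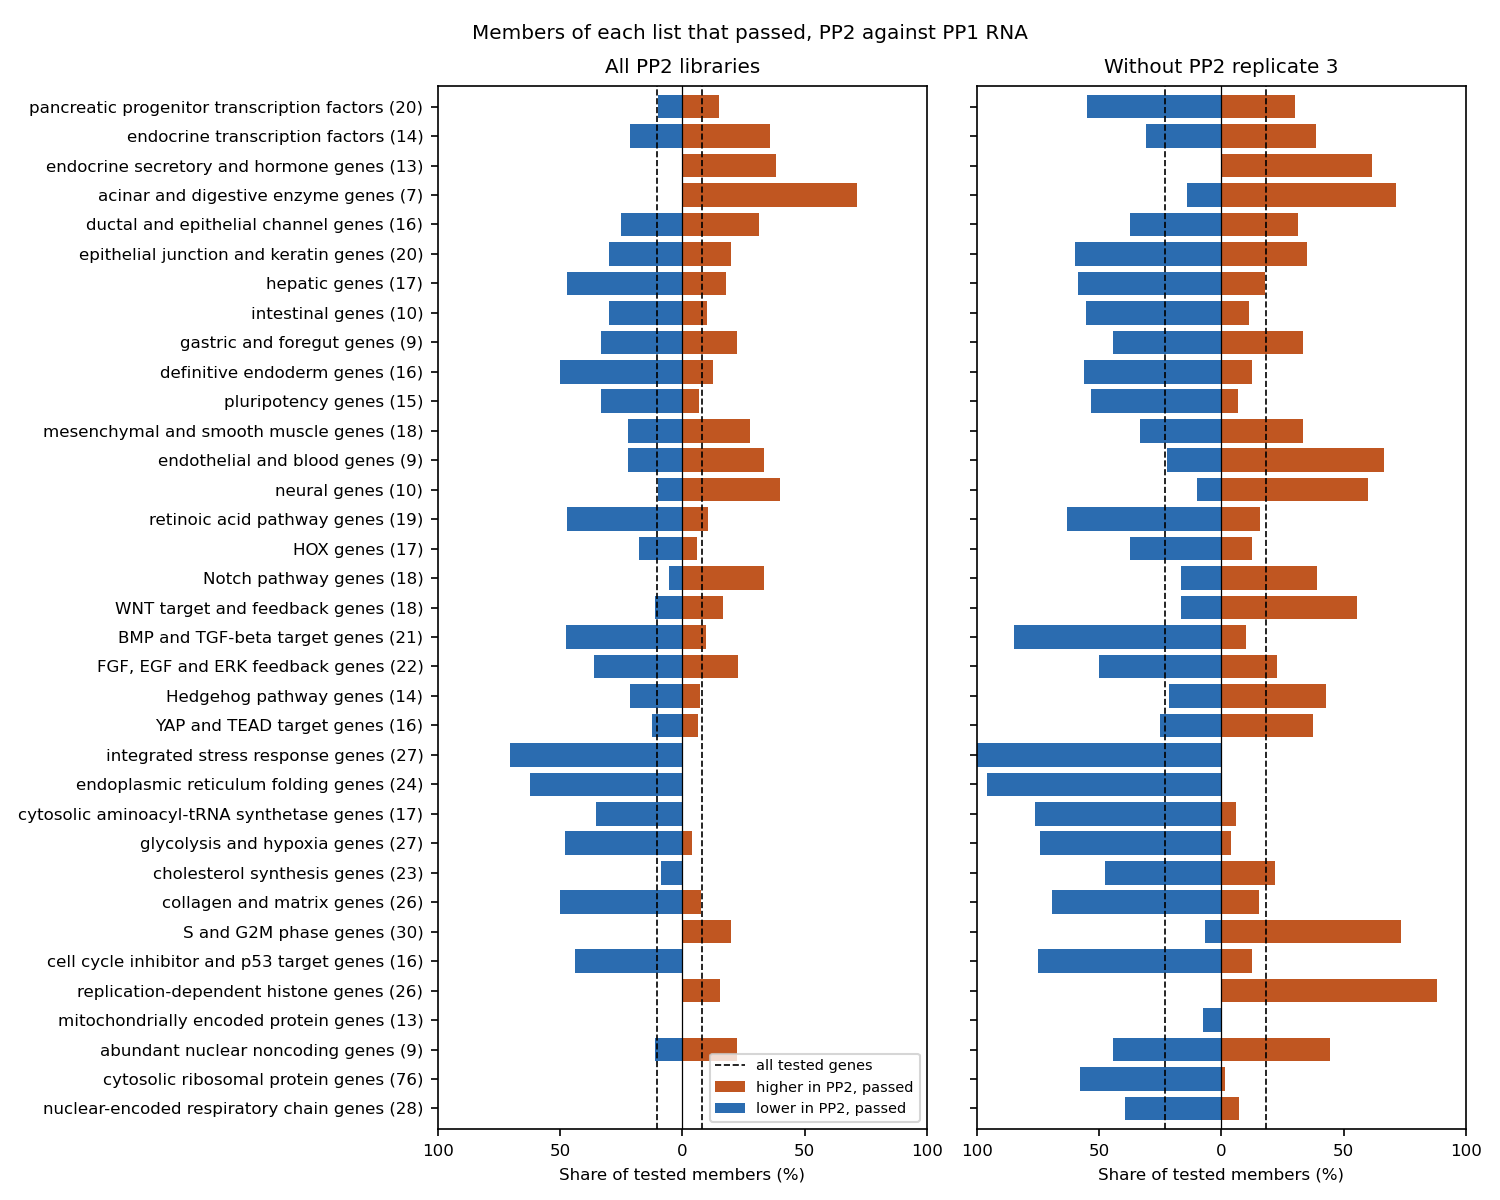
Bars give the share of each list's tested members (number in brackets, for all libraries) that passed higher (orange, right) or lower (blue, left) in PP2, with all PP2 libraries in the left panel and without PP2 replicate 3 in the right. Dashed lines mark the shares over all tested genes, 7.8% and 10.6% on the left and 18.2% and 23.3% on the right, and the stress response and endoplasmic reticulum lists reach furthest to the left in both panels.

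Replication-dependent histone genes were higher in PP2, by an amount that depended on the library. These RNAs carry no poly(A) tail, and their copies are near-identical, so reads of single members are uncertain. Of 26 tested members 4 rose (1 leaving out DE replicate 1 or 2, 0 leaving out PP1 replicate 1 or 2, 11 leaving out PP2 replicate 1, 7 leaving out PP2 replicate 2 and 22 leaving out PP2 replicate 3) and none fell. In 22 of the 26 every PP2 library lay above every PP1 library, which was so for 25.3% of all tested genes. The median relative to PP1 was log2 0.54, 0.63 and 2.32 in replicates 1, 2 and 3. HIST1H4C was measured at 67.6 and 65.97 CPM in PP1 and 97.2, 95.4 and 661 CPM in PP2 and did not pass (log2 2.09 ± 0.83, adjusted p = 0.117). Cytosolic ribosomal protein genes (76 tested) and nuclear-encoded respiratory chain genes (28 tested) had no member that passed, and neither did the 13 mitochondrially encoded protein genes. The medians of the ribosomal and respiratory chain lists were log2 -0.32, -0.32 and 0.74, and log2 -0.19, -0.24 and 0.46, in replicates 1, 2 and 3, so replicate 3 lay on the other side of PP1. Without replicate 3, 44 of the 76 ribosomal protein genes fell and 1 rose, 11 of the 28 respiratory chain genes fell and 2 rose, and 1 mitochondrially encoded gene fell. Without PP1 replicate 2, 1 ribosomal protein gene fell.

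Genes ranked by fold change added members outside these lists. The rank was taken among protein-coding genes that passed, averaged at least 10 CPM in the stage with more RNA and did not overlap between stages. DKK2, a secreted WNT modulator, had 2 counts over the PP1 libraries and was 253-fold (95% counting interval 69.96 to 2096) higher in PP2, at 13.4, 10.8 and 20.2 CPM (adjusted p = 4.8e-04). SIM1, a transcription factor, rose from 0.343 and 0 CPM to 16.4, 14.6 and 17.4 CPM (log2 6.68 ± 0.63, adjusted p = 5.4e-04). DCC, the netrin receptor gene, rose from 1.64 and 3.12 CPM to 85.8, 101 and 81.6 CPM (log2 5.21 ± 0.31, adjusted p = 1.5e-04). All 3 were well above PP1 in each PP2 library. KCTD16, RTL1 and SAMD13 were also among the 15 highest, at log2 5.78 ± 0.38, 5.14 ± 1.03 and 5.10 ± 0.47. RTL1, an imprinted gene with an antisense transcript that unstranded counting could not separate, was low in replicate 3, at 41.5, 39.3 and 4.102 CPM. RTL1 lost its call without PP1 replicate 1 or 2 (adjusted p = 0.107 to 0.114).

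Among the 15 largest falls was a regulator of earlier endoderm. FOXH1, the partner of SMADs in Nodal signalling, fell from 16.8 and 12.6 CPM to 0.417, 0.663 and 0.138 CPM (log2 -5.17 ± 0.41, adjusted p = 2.9e-04). DACT1, a modulator of WNT signalling, fell from 149.6 and 157 CPM to 7.15, 5.25 and 7.098 CPM (log2 -4.56 ± 0.20, adjusted p = 1.1e-04). ADM2, a peptide hormone gene, fell from 100.3 and 79.9 CPM to 1.57, 3.16 and 2.996 CPM (log2 -5.12 ± 0.31, adjusted p = 1.5e-04), and the coagulation factor gene F7 from 39.7 and 29.8 CPM to 1.04, 0.969 and 1.24 CPM (log2 -4.99 ± 0.29, adjusted p = 1.4e-04). Every PP2 library was far below PP1 for these. Others were ANO1, FBLN2, RAB3IL1, RENBP, MUC16, SOAT2 and S100A14, between log2 -5.22 and -4.54, beside CYP26A1, NUPR1 and TDGF1.

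By gene type, 1389 of 14997 tested protein-coding genes rose (9.26%) and 2098 fell (13.99%). Of 1533 long noncoding RNA genes 125 rose (8.15%) and 136 fell (8.87%). Of 1883 pseudogenes, whose reads can come from their parent genes, 80 rose (4.25%) and 95 fell (5.05%). A further 5914 tested symbols had no RefSeq match, and 314 of them rose (5.31%) and 274 fell (4.63%). The shares over all tested genes were 7.8% and 10.6%. The imprinted RNA H19 rose from 33.7 and 60.7 CPM to 187, 219 and 148 CPM (log2 1.97 ± 0.31, adjusted p = 0.00651), and the nuclear RNA NEAT1 fell from 719.7 and 493 CPM to 262, 231 and 138 CPM (log2 -1.53 ± 0.29, adjusted p = 0.00988). MALAT1 was lowest in replicate 3, at 21378 and 16368 CPM in PP1 and 13967, 13369 and 4949.9 CPM in PP2 (log2 -0.81 ± 0.41, adjusted p = 0.212). H19 and NEAT1 lost their calls without PP1 replicate 1 (adjusted p = 0.0626 to 0.11).

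PP2 replicate 3 was then set against the mean of replicates 1 and 2, with 0.5 CPM added, over the 10395 genes with a mean of at least 10 CPM in PP2. It was more than 2-fold higher for 617 genes and more than 2-fold lower for 1117, together 16.7%. The same count between replicates 1 and 2 was 5 genes, and between the PP1 libraries 41. IGF2, the imprinted growth factor gene, differed most, at 465 and 332 CPM in PP1 and 1923, 2140.5 and 15.3 CPM in PP2, while its imprinted neighbour H19 was measured at 187, 219 and 148 CPM in PP2. IGF2 overlaps other genes, and how such reads were counted was not given. RPS16, a ribosomal protein gene, was at 357 and 319 CPM in PP1 and 249, 259 and 9.08 CPM in PP2, against the other direction of most of its family, since 69 of 76 ribosomal protein genes were higher in replicate 3. The proline-rich protein genes PRR36 and PRR12 were also lower, at log2 ratios of -4.75 and -4.56. AHDC1, LRFN3, BICRA, ZNF703 and BCL9L were also among the 10 lowest, between log2 -4.23 and -3.67.

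At the other end stood 5 histone genes, the plasma protein gene ALB, RPS27, the natriuretic peptide gene NPPB, SLC7A11 and MTHFD2. ALB was measured at 8.499 and 12.6 CPM in PP1 and 6.42, 9.39 and 56.6 CPM in PP2 and RPS27 at 227 and 90.8 CPM in PP1 and 91.9, 89.03 and 520.1 CPM in PP2, so RPS27 also differed between the PP1 libraries. The histone genes were HIST1H4C, HIST1H3H, HIST1H2AI, HIST1H2AC and HIST1H2BJ, at log2 ratios of 2.77 to 2.20. These values describe 1 library and have no test.

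Gene length and promoter composition went with this difference. With the genes in 5 equal groups by the length given in the count table, the median log2 ratio of replicate 3 was 0.47 in the shortest group (median 2572 bases), then 0.29, 0.17 and 0.10, and -0.04 in the longest (median 11507 bases). By the share of G and C in the promoter sequence the medians were 0.33, 0.31, 0.21, 0.11 and -0.04, from the lowest group to the highest. Chromosomes 19 and 22 had the lowest medians, -0.09 and -0.16, with 22.5% and 17.8% of their genes more than 2-fold lower. Chromosomes 16, 17 and 20 were also below 0, at -0.05, -0.06 and -0.08. The highest were chromosomes 4, 5 and 8, at 0.37, 0.38 and 0.38. The part of gene length and promoter composition in the PP2 values above was not tested, and the GC content of the chromosomes and transcripts was not analysed here.

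**Figure D5:**
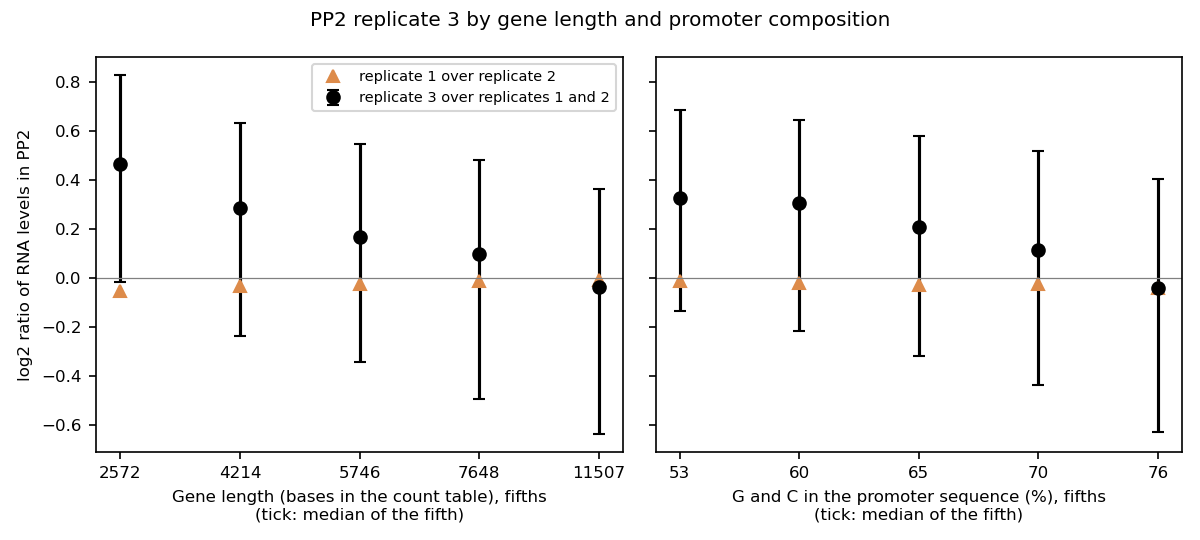
Median log2 ratio of PP2 replicate 3 to the mean of replicates 1 and 2 (black points, bars from the first to the third quartile) in 5 equal groups of genes by length (left, bases) and by G and C in the promoter sequence (right, %), with the ratio of replicate 1 to replicate 2 as orange triangles. The black medians go down from 0.47 to -0.04 with length and from 0.33 to -0.04 with promoter GC, while the triangles stay near 0.

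Ribosome profiling (Ribo) of the same stages, with its own 2 PP1 and 3 PP2 libraries, was fitted in the same way as a second readout, in which 325 of 15067 genes rose (2.16%) and 430 fell (2.85%). Its PP2 libraries differed in make-up, with 94.8%, 43.8% and 79.6% of counts in protein-coding genes against 28.1% and 30.7% in PP1. NKX6-1 rose there too (log2 7.57 ± 0.56, adjusted p = 2.4e-04), as did SERPINA1 (log2 6.54 ± 1.01, adjusted p = 0.00732), and CYP26A1 fell (log2 -7.17 ± 0.53, adjusted p = 2.4e-04). SIM1 and DKK2 did not pass (log2 -1.08 ± 0.62, adjusted p = 0.333 and log2 2.54 ± 0.75, adjusted p = 0.0784). Of 27 stress response genes tested 9 fell and none rose, with a median of log2 -1.14. Of 23 endoplasmic reticulum folding genes 2 fell and none rose, and the Ribo median of log2 0.06 stood beside -1.37 in RNA. Matrix genes differed in the same way, with 2 of 26 higher, none lower and a Ribo median of log2 0.56 beside -0.81 in RNA. The Ribo median over all tested genes was log2 0.04. Such gaps were not particular to these 2 lists and ran both ways. Epithelial junction and keratin genes had a Ribo median of log2 0.79 beside -0.53 in RNA, and gastric and foregut genes -1.50 beside 0.24. The difference between the assays was not tested here.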

How the data were processed

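Total RNA depleted of ribosomal RNA was sequenced in 7 RNA libraries of HUES8 cells, and ribosome-protected fragments in 7 Ribo libraries. The values are counts per gene, deposited by the authors in 1 table. Per the submitters' processing notes, cutadapt 1.18, Bowtie 1.2, STAR 2.7.1a and featureCounts 1.6.4 were used with hg38. The annotation and the strand setting are not given in the sources used here, so overlapping and antisense genes cannot be separated.

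The counts were tested in edgeR 4.0.16 (R 4.3.3) with its quasi-likelihood test on all 7 RNA libraries after filterByExpr and TMM scaling, with 1 term per stage, the contrast PP2 minus PP1, and Benjamini-Hochberg adjustment at 0.05. Ribo was fitted separately. A floor of 3 counts over a group was used where that group had no count, and fold changes of groups with 1 to 3 counts have exact 95% intervals. Both cover counting error only. Depth was 15107847 to 21009065 counts per RNA library. DESeq2 1.42.0 and limma 3.58.1 (voom with quality weights) served as alternatives, beside other scalings, count filters, a test against 2-fold, a replicate block and leaving out each library. The procedure was tested on simulated data in which no library stood apart as PP2 replicate 3 does, so that test does not cover this feature.

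The 35 gene lists hold 761 members, of which 756 were in the table (44 by an older symbol) and 681 were tested. Named genes are list members, the 15 highest and 15 lowest protein-coding genes that passed, averaged at least 10 CPM in the stage with more RNA and did not overlap, and the 10 highest and 10 lowest ratios of PP2 replicate 3 at a mean of at least 10 CPM in PP2. FICD and SYNPO were named for their promoter element, and the promoters to print were chosen after the values were seen. The comparison, members and lists were chosen with earlier results of these data known. A few named genes are not reported here.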

Additional observations from a re-analysis of the deposited data

How the results depend on the processing

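The count of 4533 genes that passed in RNA stayed within 1.5 times under 7 alternatives, which were the 3 other scalings of library size, both other count filters, DESeq2's Wald test and a fit of the PP1 and PP2 libraries alone, with 3184 to 6514 genes. It was 9600 with limma voom and quality weights, 1098 with edgeR's test against a 2-fold change and 9758 with a replicate block, and leaving out 1 library in turn gave 1210 to 9984. The sum over the gene lists was 247 members, against 456, 94 and 494 under the same 3 alternatives and 107 to 493 with 1 library left out. For Ribo 755 genes passed, against 201 with the replicate block and 58 to 3474 with 1 library left out. Only PP2 has a replicate 3 in RNA, so by construction the block absorbs that library, and the fit with 1 PP1 library assumes that it varies like the other groups. Differences between replicates 1 and 2 correlated between stages at -0.03, 0.02 and 0.01 over 24603 genes. No shared deviation was thus seen, but this cannot show whether same-numbered libraries came from 1 differentiation. The share of genes more than 2-fold apart in PP2 replicate 3 was 16.7%, and 19.1% over the 4460 genes with a mean of at least 50 CPM. It was 16.8% with DESeq2 size factors, and the counts of promoter elements kept their direction with only the bases before the start.

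Of 163 named genes, 10 changed sign under some alternative, and none of them had passed. With 1 library left out in turn, log2 values ran from -0.55 to 0.39 for AHDC1, -0.42 to 1.65 for ALB, -0.58 to 0.050 for CCN1, -0.028 to 0.19 for HES1, -0.80 to 0.21 for LRFN3, -0.093 to 0.68 for MKI67, -0.21 to 0.28 for PROX1, -0.38 to 0.68 for PRR36, -0.80 to 1.36 for RPS27 and -0.20 to 0.37 for SLC2A1. With the replicate block and with voom, AHDC1 was at log2 0.38 and 0.27, ALB at -0.42 and -0.38, CCN1 at 0.054 and 0.0041, LRFN3 at 0.20 and 0.080, and RPS27 at -0.73 and -0.57. The causes were not tested. With 2 or 3 libraries in a group, the replicate number limits the precision.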
